A study of Mus musculus with 12 samples.

Results

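The genes described here mark lymphocytes: T cells, natural killer (NK) cells, B cells and antibody-secreting plasma cells. They were chosen by name, as the probe sets of the array whose annotation gives exactly 1 symbol among 30 lymphocyte genes. Of these 30 genes, 29 had such a probe set, 52 probe sets in all, out of 18194 genes with an unambiguous probe set on the array. No probe set carried the symbol Lck in the annotation used here. A filter on low values kept 42 of the 52 probe sets and 28 of the 29 genes, and Pax5, the commitment factor of B cells, was read only by probe sets below it.

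The RNA came from primary mammary epithelial cells of female mice of the inbred strain FVB/N, with 1 Affymetrix array for each sample that the labels call a biological replicate. The 6 control arrays came from mice with the MMTV-rtTA transgene alone. The 6 p190B arrays came from MMTV-rtTA/TetO-p190B mice, in which the doxycycline-bound activator rtTA, made under the MMTV promoter that is active in mammary epithelium, switches on p190B RhoGAP together with luciferase. Mice of both genotypes carried rtTA and ate doxycycline chow (2 g/kg) for 7 days from 5 weeks of age, and cells were taken at 6 weeks. The comparison that the study set up is therefore between epithelial cells with and without the p190B transgene in mice given the same drug. The labels do not say whether an array held RNA of 1 animal or of several, so the p-values measure the spread between these arrays. Of the 4 probe sets of Arhgap5, the gene of p190B, 1 had 831.1 to 1319 intensity units in control and 1201 to 1635 in p190B (log2 difference 0.41, limma adjusted p = 0.258). The brightest, with 4573 to 5601 units in control and 3802 to 5828 in p190B, had a difference of −0.14 (limma adjusted p = 0.710), and the other 2 had −0.32 and 0.10 (limma adjusted p = 0.491 and 0.925). Whether these probe sets read the transgene's transcript is not known here.

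T cells recognise antigen through a receptor whose signal is carried by the CD3 chains, with CD4 or CD8 as coreceptor. B cells use membrane immunoglobulin with the CD79 chains in the same role, and plasma cells secrete it. Naive lymphocytes enter lymph nodes from the blood and settle there in T and B zones, while cytotoxic T and NK cells kill with granzymes. In the mouse, the fourth mammary fat pad holds an inguinal lymph node, and some T cells also lie within the mammary epithelium itself. The labels do not say whether lymph nodes were removed before the cells were isolated.

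The promoters of 7 of these genes are shown here, because the first 4 belong to receptor genes whose signal moved together across arrays and the last 3 to genes that followed that course less closely. Promoter sequence was found for 20 of the 30 genes in a RefSeq table of the mouse assembly GRCm38.p6. Each sequence is the stretch of up to 250 bases before the start given in that table, on the gene's own strand, without bases that lie inside the gene. Capitals mark matches, on either strand, to the ETS-family motif AGGAAGT, the RUNX motif TGTGGTT and the octamer ATTTGCAT.
Cd3g and Cd3d, 2 CD3 chain genes in opposite directions on chromosome 9 with 1337 bases between them, have chr9:44980432-44980681 (minus strand) and chr9:44981536-44981768 (plus strand), and the third chain gene, Cd3e, lies 11682 bases beyond Cd3d with chr9:45009664-45009861 (minus strand).
Cd3g: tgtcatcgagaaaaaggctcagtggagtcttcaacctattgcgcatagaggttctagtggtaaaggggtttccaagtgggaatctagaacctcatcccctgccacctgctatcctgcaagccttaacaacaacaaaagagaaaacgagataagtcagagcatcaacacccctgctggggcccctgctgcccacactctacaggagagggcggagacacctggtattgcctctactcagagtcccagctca
Cd3d: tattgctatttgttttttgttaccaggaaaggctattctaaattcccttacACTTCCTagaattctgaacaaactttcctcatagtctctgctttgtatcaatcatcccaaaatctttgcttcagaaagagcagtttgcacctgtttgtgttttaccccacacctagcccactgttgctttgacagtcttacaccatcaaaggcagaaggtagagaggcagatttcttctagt
Cd3e: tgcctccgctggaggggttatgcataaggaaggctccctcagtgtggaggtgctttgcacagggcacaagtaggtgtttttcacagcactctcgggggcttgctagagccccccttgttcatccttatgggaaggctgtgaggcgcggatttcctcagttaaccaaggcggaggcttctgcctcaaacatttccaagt
Cd79a, a signal chain of the B cell receptor, has chr7:24897247-24897496 (plus strand).
Cd79a: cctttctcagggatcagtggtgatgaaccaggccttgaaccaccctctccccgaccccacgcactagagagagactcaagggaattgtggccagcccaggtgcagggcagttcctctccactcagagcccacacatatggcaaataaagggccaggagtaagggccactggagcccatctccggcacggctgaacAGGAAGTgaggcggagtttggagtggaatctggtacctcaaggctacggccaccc
The granzyme genes Gzma and Gzmb have chr13:113100982-113101231 and chr14:56262335-56262584 (both minus strand), and Blnk, the adaptor downstream of the B cell receptor, has chr19:40994222-40994471 (minus strand).
Gzma: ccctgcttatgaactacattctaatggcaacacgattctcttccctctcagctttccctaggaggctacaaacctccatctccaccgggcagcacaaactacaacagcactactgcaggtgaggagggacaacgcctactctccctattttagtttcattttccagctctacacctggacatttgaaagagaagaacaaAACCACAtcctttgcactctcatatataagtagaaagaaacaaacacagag
Gzmb: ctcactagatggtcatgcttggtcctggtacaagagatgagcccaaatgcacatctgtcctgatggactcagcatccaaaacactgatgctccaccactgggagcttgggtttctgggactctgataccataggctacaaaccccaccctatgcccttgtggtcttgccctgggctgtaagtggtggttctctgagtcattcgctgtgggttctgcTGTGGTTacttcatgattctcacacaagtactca
Blnk: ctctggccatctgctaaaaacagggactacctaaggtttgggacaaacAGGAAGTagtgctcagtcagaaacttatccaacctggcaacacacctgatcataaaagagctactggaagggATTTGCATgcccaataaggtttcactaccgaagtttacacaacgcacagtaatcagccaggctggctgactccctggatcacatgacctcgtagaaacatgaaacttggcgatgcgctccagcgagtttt

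Over the full 250 bases before the start, AGGAAGT stood in 8 of the 23 promoters of these genes (34.8%) and in 7.69% of all 32851 promoters of the table. The genes with it were Blnk, Cd37, Cd3d, Cd3e, Cd79a, Il7r and Lck, so it occurred in T and in B cell genes. The match of Cd3e lies 18 bases before the table's start but inside the gene's outer bounds, and is therefore not in the sequence above. TGTGGTT was found in Gzma, Gzmb and Lck and in 4.40% of all promoters, and the octamer only in Blnk among the 20 genes, against 1.60% of all. Of 5 other motifs searched on both strands, the E-box CAGGTG stood in 10 of the 23 promoters (43.5%, beside 17.2% of all). The Ikaros core TGGGAA stood in 8 (34.8%, beside 21.6%) and the EBF palindrome in 1 (4.35%, beside 0.779%). The TCF motif TTCAAAG (4.46% of all) and an NF-kappaB consensus (0.140%) stood in 0. Motifs were not prevented from overlapping, a match is a string of letters and not a shown binding site, and the motifs were settled with these matches known.

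Across the 12 arrays, the lymphocyte genes varied more than most of the transcriptome, and they varied together. The range of a gene is taken here as its highest minus its lowest log2(intensity + 16) over the 12 arrays, by its brightest probe set. The median range of the 28 genes was 3.56, against 0.72 over all 27022 tested probe sets and 0.77 over the 16889 of them at a like mean level. In 25 of the 28 genes the range was above 2, that is a 4-fold span on this scale, where 3.00% of all tested probe sets had such a range. In RNA from a mixed preparation, fewer cells of a type and less RNA per cell cannot be told apart.

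**Figure D1:**
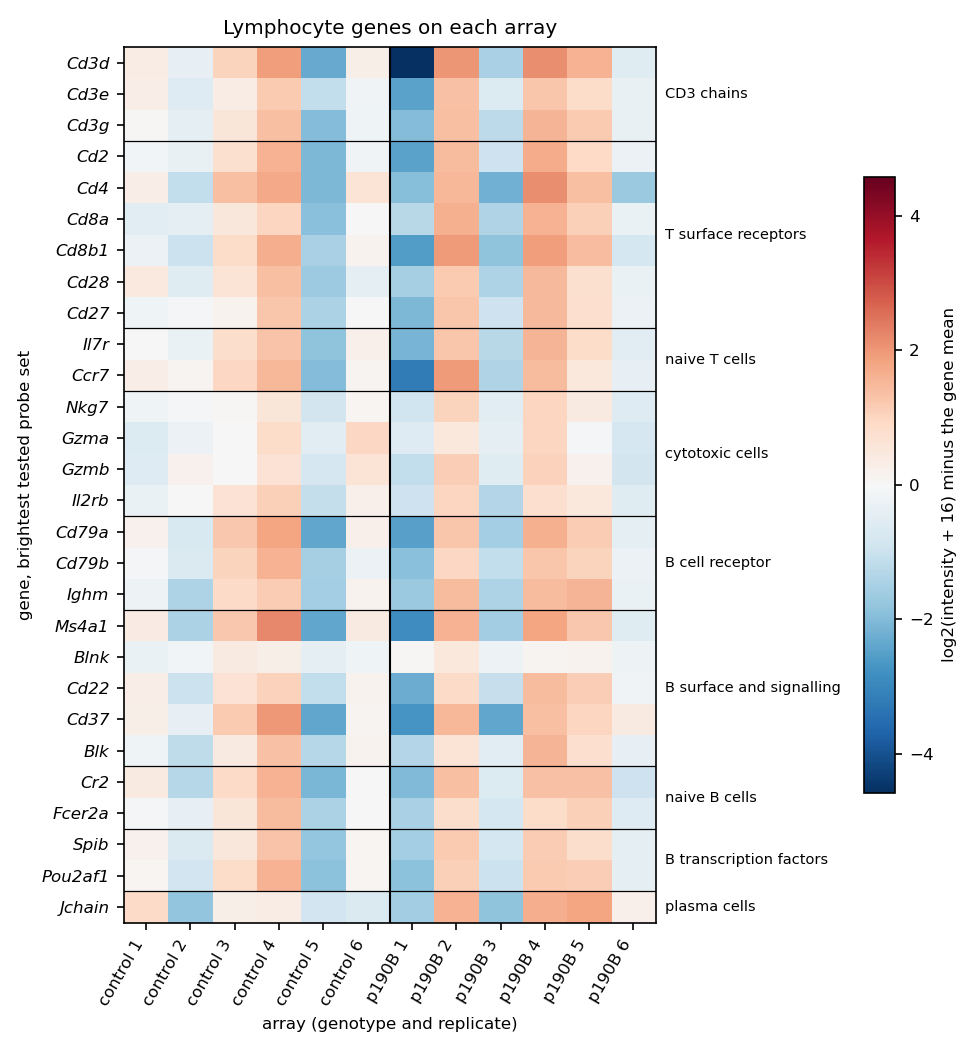
Each row is 1 of the 28 lymphocyte genes and each column 1 array, with controls left of the black line and p190B right of it; colour is the log2(intensity + 16) minus the gene's mean over the 12 arrays. Control replicate 5 and p190B replicates 1 and 3 are pale to dark blue for nearly all genes, control replicate 4 and p190B replicates 2, 4 and 5 are red, and the Blnk row stays near white.

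The same arrays were high or low for most genes, and each genotype held both kinds. The mean over the 28 genes was lowest at 6.80 on p190B replicate 1, 7.13 on control replicate 5 and 7.55 on p190B replicate 3. It was highest at 10.11 on p190B replicate 4, 10.03 on control replicate 4, 9.98 on p190B replicate 2 and 9.66 on p190B replicate 5. The remaining arrays lay between 8.10 (control replicate 2) and 9.39 (control replicate 3), so that arrays of both genotypes lay along the whole series. For 20 of the 28 genes the 3 lowest arrays were exactly the 3 just named, and for 18 the 4 highest were. p190B replicate 1 was the lowest array for 19 genes.

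The RNA of the low p190B arrays also differed in another measure. The log2 3′ over 5′ signal ratio of Actb, read by the array's own control probe sets, was highest on p190B replicates 3 and 1, at 0.59 and 0.48, against 0.25 to 0.35 on all other arrays. Control replicate 5, also low in lymphocyte genes, had the lowest ratio of all, 0.25. Over the 12 arrays the ratio correlated with the lymphocyte mean at r = −0.46 (Spearman rho = −0.24), at −0.58 without the 2 arrays farthest from the lymphocyte median, at 0.04 within control and −0.76 within p190B, and at 0.31 without p190B replicates 1 and 3. The Gapdh ratio ran from −0.52 to −0.47 in control and from −0.48 to −0.32 in p190B. It correlated with the lymphocyte mean at −0.27 over the 12 arrays, 0.32 within control and −0.62 within p190B. Group means in control and p190B were 0.29 ± 0.03 and 0.40 ± 0.11 for Actb and −0.49 ± 0.02 and −0.40 ± 0.06 for Gapdh (SD over 6 arrays). Both ratios were thus higher on average in p190B. The part of these ratios in the results was not tested. Without p190B replicates 1 and 3 the median range of the 28 genes was still 3.29, and 24 of the 28 genes had a range above 2, against 2.39% of all tested probe sets.

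Among the CD3 chains, which carry the T cell receptor's signal, Cd3g had 152, 622 and 1705 intensity units as the lowest, median and highest control values and 150.1, 999 and 1951 in p190B. Cd3e had 182, 445 and 984 in control and 61.7, 538 and 1065 in p190B. For Cd3d the values were 130.2, 882 and 2710 in control and 14.3, 1318 and 3160 in p190B. The genotypes overlapped throughout for these 3 genes. Cd3d had the widest range of all 28 genes, 6.71, because of the 14.3 units on p190B replicate 1, a level far below the filter. Without that array its range was 4.44, and that of Cd3e was 2.45 in place of 3.80. Across arrays Cd3d correlated with Cd3e at r = 0.984 and with its neighbour Cd3g at 0.959.

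The coreceptors and other T cell surface proteins followed the CD3 chains. Cd4, the helper T cell coreceptor, which some dendritic cells also carry, ran from 22.7 over a median of 212 to 526.5 units in control and from 19 over 219.6 to 703 in p190B. For Cd8a, the first chain of the cytotoxic T cell coreceptor, the values were 56.2, 226 and 522 in control and 88.3, 387 and 826 in p190B. Its partner chain Cd8b1 had 73.2, 223 and 762 against 26.3, 388 and 932. All 3 were high on control replicate 4 and p190B replicates 2, 4 and 5. Cd8a correlated with Cd8b1 at r = 0.951 and with Cd4 at 0.920 over the 12 arrays.

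Cd4 and Cd8a did not keep the same distance on every array. Log2 Cd4 minus log2 Cd8a averaged −0.38 ± 0.65 over the controls and −1.11 ± 0.73 over the p190B arrays (SD over 6 arrays), with single values from −1.45 to 0.10 and from −2.14 to −0.19, which overlap. The distance between probe sets has no absolute meaning, and only its change between arrays is read here. The lowest Cd4 values, 19 units on p190B replicate 3, 22.7 on control replicate 5 and 25.7 on p190B replicate 1, lay below the level of the filter. So did 33.9 units on p190B replicate 6 and 59.3 on control replicate 2. These 2 arrays gave the lowest Cd4 minus Cd8a of their groups, −2.14 and −1.45.

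Cd2, an adhesion receptor of T and NK cells, had a range of 4.14, Cd27, a costimulatory receptor of the TNF receptor family, 3.55, and Cd28, the main costimulatory receptor of T cells, 3.17. Cd2 reached 1367 units in control and 1476 in p190B, from lowest values of 95 and 68.8. Cd28 and Il7r were each read by 2 tested probe sets, and these correlated at r = 0.964 and 0.972. Of the 4 tested Cd8a probe sets, 1 stood apart, with a range of 1.11 and r = 0.56 with the mean of the other genes, where the other 3 had 0.95 to 0.96.

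Naive T cells are marked by Ccr7, the receptor that guides lymphocytes into the T zone of lymph nodes, and Il7r, the receptor for the survival cytokine interleukin 7. Ccr7 ran from 358 over a median of 1729 to 4323 units in control and from 148 over 1607 to 5858 in p190B, a range of 5.16, the second widest. Il7r had 257, 1057 and 2430.5 in control and 207, 1201 and 2905 in p190B. Both were highest on p190B replicate 2 or 4 and lowest on p190B replicate 1. Il7r correlated with the mean of the other 27 genes at r = 0.992.

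The cytotoxic and NK members Nkg7, Gzma, Gzmb and Il2rb varied less, and the granzymes among them followed the other lymphocyte genes less closely. Nkg7, a granule membrane protein, had 134, 252 and 384 units in control and 128, 256 and 535 in p190B. The granzymes, proteases that killer cells release, gave 223, 322 and 695 for Gzma in control and 202, 297 and 711 in p190B, and 253, 477 and 708 against 197, 408 and 984 for Gzmb. Il2rb, the interleukin 2 receptor beta chain, ran from 99.2 over 247 to 506 and from 79.5 over 235 to 467. For Gzma the lowest array was p190B replicate 6, and for Gzmb and Nkg7 p190B replicate 1. The level that these probe sets read without any lymphocyte RNA is not known here.

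The ranges of these 4 genes were 1.74 for Gzma, 1.94 for Nkg7, 2.23 for Gzmb and 2.45 for Il2rb, with a median of 2.08, against 3.80 for the CD3 chains. Per unit of the CD3 mean on the log2 scale, the cytotoxic mean was higher by 0.41 (r = 0.875, rho = 0.930 over 12 arrays). Without the 2 arrays farthest from the CD3 median, control replicate 5 and p190B replicate 1, it was higher by 0.54 (r = 0.856). Gzma was the loosest of the group, with r = 0.71 to the mean of the other 27 genes, where Gzmb had 0.84 and Nkg7 and Il2rb each 0.93. Gzma was highest among controls on replicate 6, at 695 units, an array that was sixth in the lymphocyte mean. Gzma correlated with Gzmb at 0.902 but with Cd3g at only 0.669.

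**Figure D2:**
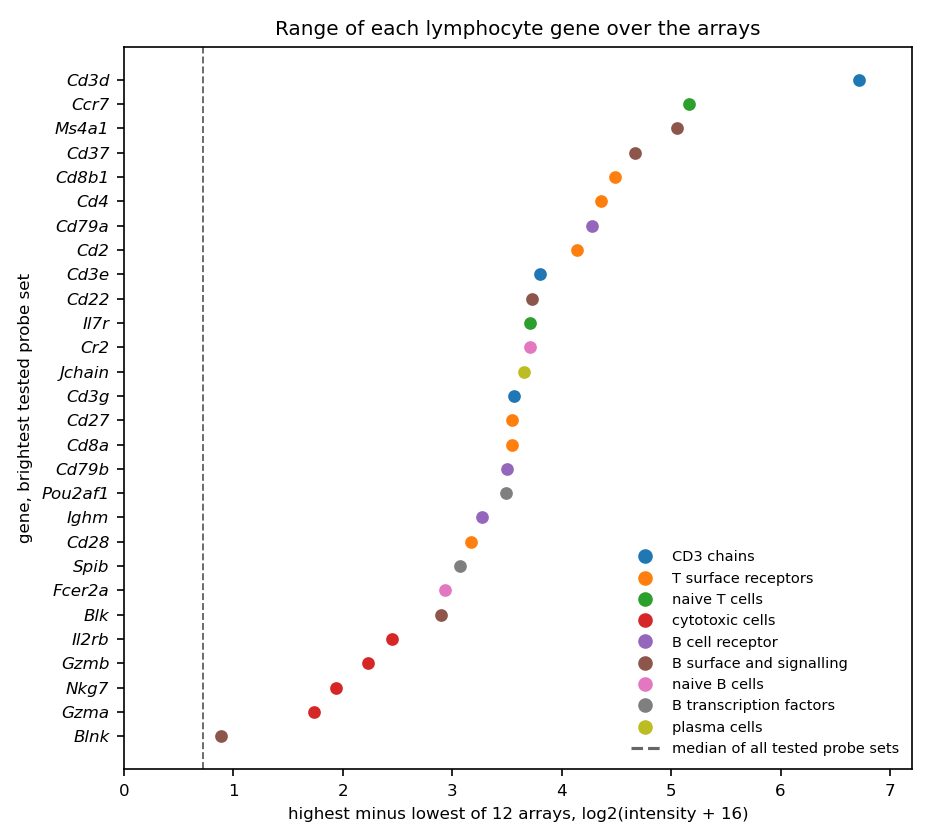
Points give, for each of the 28 genes, the highest minus the lowest log2(intensity + 16) of the 12 arrays, coloured by the gene's role, and the dashed line is the median of all 27022 tested probe sets, 0.72. Cd3d, Ccr7 and Ms4a1 lie above 5, the 4 cytotoxic genes between 1.74 and 2.45, and Blnk at 0.89.

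Among B cell genes, the receptor chains had the course of the CD3 chains. Cd79a had 47.0, 359 and 1122 units as lowest, median and highest control values and 42.6, 471 and 987 in p190B. Cd79b had 120.0, 329.9 and 1154 in control and 87.5, 524 and 939 in p190B. The controls had the highest array for both genes, replicate 4, and p190B replicate 1 the lowest. Cd79a correlated with Cd79b at r = 0.986, and with the T cell gene Il7r at 0.99.

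Ighm, the constant region of the IgM heavy chain, had 7 tested probe sets. The brightest had 609.6, 1814 and 4108 units in control and 548, 3240.2 and 5448 in p190B, and it correlated at r = 0.963 with the mean of the other genes. Of the others, 2 correlated with that mean at 0.93 and 0.79, and 4 at only 0.31 to 0.57. On the probe set with 0.31 the highest value, 2119 units, was on control replicate 1, and control replicate 4, the array richest in Cd79a, had 421. Immunoglobulin probe sets can read near-identical genes of the family, so the level of a single Ighm transcript is uncertain from them.

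The surface and signalling genes of B cells included one that did not follow. Ms4a1, which encodes CD20, ran from 96.1 over 744 to 2655 units in control and from 64.7 over 862 to 2026 in p190B. Cd37, a tetraspanin of B and other leukocytes, had a range of 4.67, Cd22, an inhibitory coreceptor, 3.73, and Blk, a Src-family kinase of B cells, 2.90. Blnk, in contrast, had 948, 1126 and 1697 units in control and 1066, 1332 and 1771 in p190B, a range of 0.89. Its signal on p190B replicate 1, 1306 units, was above its control median although the CD79 genes were at their lowest there. Blnk correlated with Cd79a at r = 0.664 and with the mean of the other 27 genes at 0.667.

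Naive and follicular B cells carry Cr2, the complement receptor CD21, and Fcer2a, the low-affinity IgE receptor CD23. Cr2 had 23.3, 180.2 and 497 units in control and 25.6, 253 and 419 in p190B, and Fcer2a 69.3, 208 and 622 against 67.5, 263 and 484. The naive B mean followed the naive T mean, with r = 0.936 and rho = 0.874 over 12 arrays and r = 0.885 without the 2 arrays farthest from the naive T median. Of the transcription factors, Pou2af1, the coactivator of octamer-dependent genes, had 142, 599 and 1752 units in control and 141, 819 and 1331 in p190B. Spib, an ETS-family factor also found in plasmacytoid dendritic cells, had a range of 3.07. Both stayed close to the B cell surface genes, with r = 0.992 between Pou2af1 and Ms4a1. The 2 Pax5 probe sets, at most 134 units, correlated with the gene mean at only 0.32 and −0.47.

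Jchain joins the units of secreted IgM and IgA and marks plasma cells. It followed the other genes more loosely than most did, with r = 0.81 to their mean and 0.890 to Ighm. Jchain had 187, 630.1 and 1285 units in control and 180.2, 1449 and 2453 in p190B. It was highest on p190B replicates 5, 4 and 2, followed by control replicate 1, an array in the middle of the series. Control replicate 4 had only 886 units despite its high Cd79b. Jchain correlated with Cd79b at r = 0.807 (rho = 0.790), 0.839 without the 2 arrays farthest from the Cd79b median, and at 0.616 within control and 0.963 within p190B.

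T and B cell genes varied together from array to array. The mean of the 15 T and NK genes ran from 6.73 to 10.19 and the mean of the 13 B and plasma genes from 6.89 to 10.07. Over the 12 arrays these means correlated at r = 0.977 (rho = 0.965), and at 0.956 without control replicate 5 and p190B replicate 1, the 2 farthest from the T and NK median. Within control r was 0.97 and within p190B 0.99. All points share the arrays' scaling, and no p is given, since the genes were chosen with earlier results known.

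**Figure D3:**
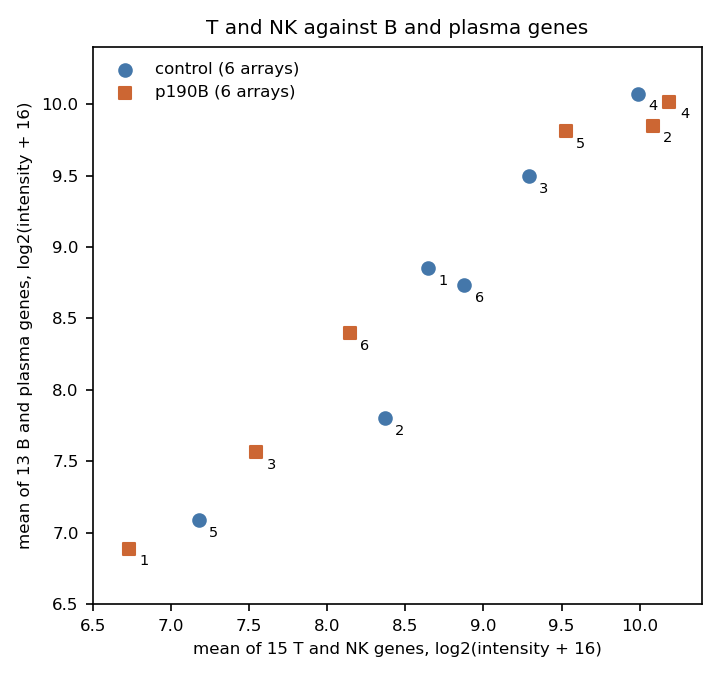
Each point is 1 array, with the mean log2(intensity + 16) of the 15 T and NK genes on the horizontal axis and of the 13 B and plasma genes on the vertical axis; numbers are replicates. Arrays of both genotypes lie along 1 line, with control replicate 2 the farthest below it.

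In 24 of the 28 genes the correlation with the mean of the other 27 was above 0.9, all but Gzma, Gzmb, Jchain and Blnk; 1.44% of all tested probe sets had such a correlation with the mean of the 28. The median correlation over the 195 pairs of a T or NK gene with a B or plasma gene was 0.927, against 0.930 over the 105 pairs within T and NK and 0.947 over the 78 pairs within B and plasma. Leaving aside the cytotoxic genes, Blnk, Ighm and Jchain, the median was 0.944 across the lineages, 0.954 within T and 0.960 within B. Against the cytotoxic genes it was 0.868 for the other T genes and 0.829 for those B genes. Genes are not independent replicates, so these are descriptions. The distance between the means was widest on control replicate 2, where T and NK minus B and plasma was 0.56, and it lay between −0.28 and 0.24 on all other arrays. On that array Jchain, at 187 units, was close to its lowest value of 180.2, while Gzmb, at 514 units, was above its control median.

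As a mean, the naive members spanned more than the effector members, though Jchain by itself had a range of 3.65, wider than the 2.93 of Fcer2a. The 8 other cytotoxic and NK genes that passed the filter had ranges from 0.71 to 4.38, so the contrast is one of these members only. The mean of Ccr7, Il7r, Cr2 and Fcer2a ran over 3.69 log2 units and that of the 4 cytotoxic genes and Jchain over 2.12, and the means correlated at r = 0.944 (rho = 0.944; r = 0.954 without the 2 arrays farthest from the naive median). The slope of the effector mean on the naive mean was 0.57 over the 12 arrays. It was 0.72 without those 2, control replicate 5 and p190B replicate 1. Naive minus effector was lowest on p190B replicate 1 and control replicate 5, at −0.81 and −0.67, the arrays poorest in lymphocyte signal, and highest on control replicate 4, at 1.15. Of the naive genes, Cr2 read near the low end of the scale on these poor arrays, with 23.3 units on control replicate 5 and 25.6 on p190B replicate 1. Fcer2a, with 69.3 and 67.5, was also below the level of the filter, while Ccr7 and Il7r were above it on both arrays. Beyond the slope without these arrays, the part of the low values was not tested.

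Between genotypes, no lymphocyte gene passed the test. Of the 42 tested probe sets, 0 reached a limma adjusted p of 0.05, where 0.0370% of all 27022 tested probe sets did, and the smallest adjusted p was 0.462. At an unadjusted p under 0.05 there was 1, the deviating Cd8a probe set, whose control mean of 131 ± 36.5 units compared with 181 ± 31.3 in the p190B arrays (SD over 6 arrays), where 9.32% of all tested probe sets had such a p. By brightest probe set 14 genes had a positive and 14 a negative difference, with a median of 0.01, beside 0.02 over all tested probe sets. In 0 of the 42 probe sets did the genotypes separate without overlap, against 0.877% of all tested probe sets.

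The intervals were wide, because replicates of 1 genotype differed so much. The median standard error of a member probe set's log2 difference was 0.59, against 0.12 over all tested probe sets. The largest difference of a tested probe set was 0.79 (SE 0.93), for another Ighm probe set than the brightest. By brightest probe set the largest was that of Jchain, 0.61 (SE 0.66), from a control mean of 665 ± 409 units and a p190B mean of 1331 ± 1049 (SD over 6 arrays), with a 95% limma interval from −0.81 to 2.03. Cd8a followed with 0.44 (−0.83 to 1.71), Ccr7 with −0.34 (−1.99 to 1.31) and Ighm with 0.34 (−1.04 to 1.73). For Cd3e and Cd79b the differences were −0.00 (−1.24 to 1.23) and −0.02 (−1.29 to 1.25). The narrowest interval was that of Blnk, 0.12 (−0.22 to 0.45). Except for Blnk and the cytotoxic genes Nkg7, Gzma and Gzmb, every gene's interval reached beyond 1, a 2-fold difference, in at least one direction, so a 2-fold difference lay inside those intervals.

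**Figure D4:**
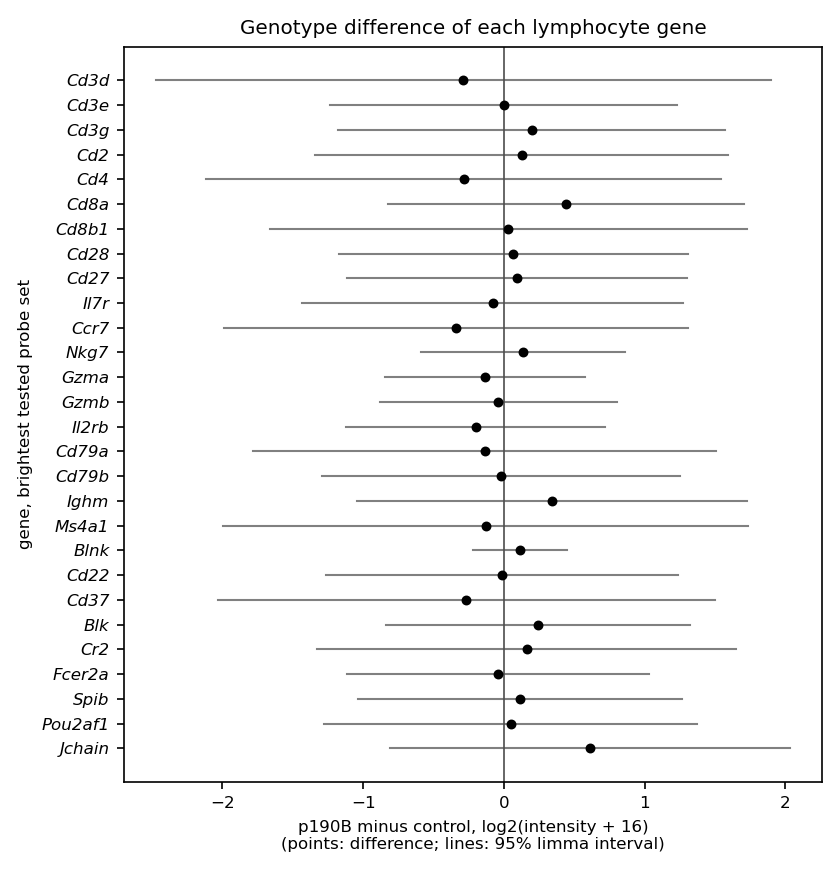
Points are p190B minus control on the log2(intensity + 16) scale for the 28 genes, and lines are 95% limma intervals from 6 arrays per genotype. All 28 intervals include 0.

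Group means over the genes were close, and their sign rested on single arrays. The T and NK mean of the controls was 8.72 ± 0.95 and that of the p190B arrays 8.70 ± 1.44, and the B and plasma means were 8.67 ± 1.09 and 8.75 ± 1.34 (SD over 6 arrays). The T and NK difference of −0.02 was 0.38 without p190B replicate 1 and −0.33 without control replicate 5. The B and plasma difference of 0.08 was 0.45 and −0.24 without the same arrays. p190B replicates 1 and 3, the arrays with the high Actb ratio, were also the lowest of the p190B group in the lymphocyte mean (6.80 and 7.55). Leaving them out raises the p190B means, while control replicate 5 (7.13) stays in. All 28 genes then had a positive difference. The genes vary together, so this is 1 shift and not 28 separate results. Of the 42 probe sets 0 passed (0.0185% of all tested did), with a smallest limma adjusted p of 0.250. At an unadjusted p under 0.05 there were then 6 of the 42 probe sets, where 11.9% of all tested probe sets had such a p and 52.5% had a positive difference. Naive minus effector was 0.44 ± 0.66 in control and 0.29 ± 0.58 in p190B.

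Of 25 other genes of the T cell receptor pathway, 16 passed the filter on low values, 10 of these correlated above 0.9 with the lymphocyte mean, and 12 had a range above 2. Between genotypes 0 of the 16 passed the test, with 11 differences above 0 and 5 below. Ctla4, an inhibitory receptor of activated and regulatory T cells, ran from 5 to 1165 units, Icos, a costimulator of follicular helper cells, from 134 to 2767, and Lef1, a transcription factor of naive T cells, from 61.3 to 1047. Cd247, the zeta chain of the receptor, had a range of 4.45. The 2 tested probe sets of Zap70, the kinase that the receptor chains recruit, disagreed, with r = 0.92 and −0.23 to the lymphocyte mean. Thy1, Klf2 and S1pr1, which other cells of the gland also express, had r = 0.28, 0.41 and 0.55. Of 14 other cytotoxic and NK genes, 8 passed the filter, 0 passed the test and 4 correlated above 0.9 with the lymphocyte mean, while Prf1, the pore-forming perforin, stayed between 121.5 and 209.0 units with r = −0.13. Ccl5, a chemokine of effector T and NK cells, ran from 631 to 13441 units, and Cst7, Eomes and Xcl1 had ranges of 3.14, 3.12 and 2.41.

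From 24 other B cell receptor pathway genes, 20 passed the filter, 0 passed the test, 9 had a range above 2 and 7 correlated above 0.9 with the lymphocyte mean. H2-Ob, a chain of a class II chaperone of B cells, ran from 96.5 to 1876 units and Fcrla, a B cell Fc receptor-like protein, from 36.4 to 783. Fcmr, the IgM Fc receptor, and Tnfrsf13c, the receptor for the survival factor BAFF, had ranges of 3.44 and 2.97. Among 9 other plasma cell genes 7 passed the filter and 0 the test. Only 1 of the 7 correlated above 0.9 with the lymphocyte mean, with r from −0.32 to 0.97 over the list, and 2 had a range above 2. Mzb1, a chaperone of antibody-secreting cells, had a range of 2.91 and Igha, the IgA heavy chain, 2.43, with r = 0.97 and 0.41 to the lymphocyte mean. Irf4 and Derl3 had ranges of 1.98 and 1.20.

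Genes of lymph node stroma and vessels were mixed. Of 12 listed, 8 passed the filter, and 3 of these correlated above 0.9 with the lymphocyte mean: Cxcl13, Chst4 and Ltb. Tnfrsf11a, Nkx2-3, Cd209a, Glycam1 and Madcam1 had r = −0.30, 0.26, 0.51, 0.64 and 0.64. Over the 8 genes the mean ran from 8.63 to 10.08 in control and from 7.53 to 10.17 in p190B. The 7.53 was on p190B replicate 1 and includes the Glycam1 value of 4.4 units there. The mean of the list correlated with the lymphocyte mean at r = 0.93, and 4 of the 8 genes had a range above 2. Cxcl13, the chemokine of B cell follicles, had 422 units on control replicate 5 and 502 on p190B replicate 1, and 7644 on control replicate 4 and 7691 on p190B replicate 5. Chst4, a sulfotransferase of high endothelial venules, ran from 54.5 on p190B replicate 1 to 641 on p190B replicate 4, and Ltb, the lymphotoxin beta that lymphocytes themselves make and that organises lymphoid tissue, from 164 on control replicate 5 to 1435 on control replicate 4. Cxcl13 and Chst4 each had r = 0.98 with the lymphocyte mean.

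Glycam1, a ligand for L-selectin made by high endothelial venules and also by milk-producing epithelium, was at 4.4 units on p190B replicate 1. It had 15429 on control replicate 5, 18657 on p190B replicate 3 and 29310 to 46133 on the other 9 arrays. This range, 11.14, was the widest of all 27022 tested probe sets. By contrast Madcam1, an addressin of mucosal venules, had a range of 0.98. The genes of this list did not pass the test between genotypes, with a smallest limma adjusted p of 0.633, and their part in the lymphocyte results was not tested.

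**Figure D5:**
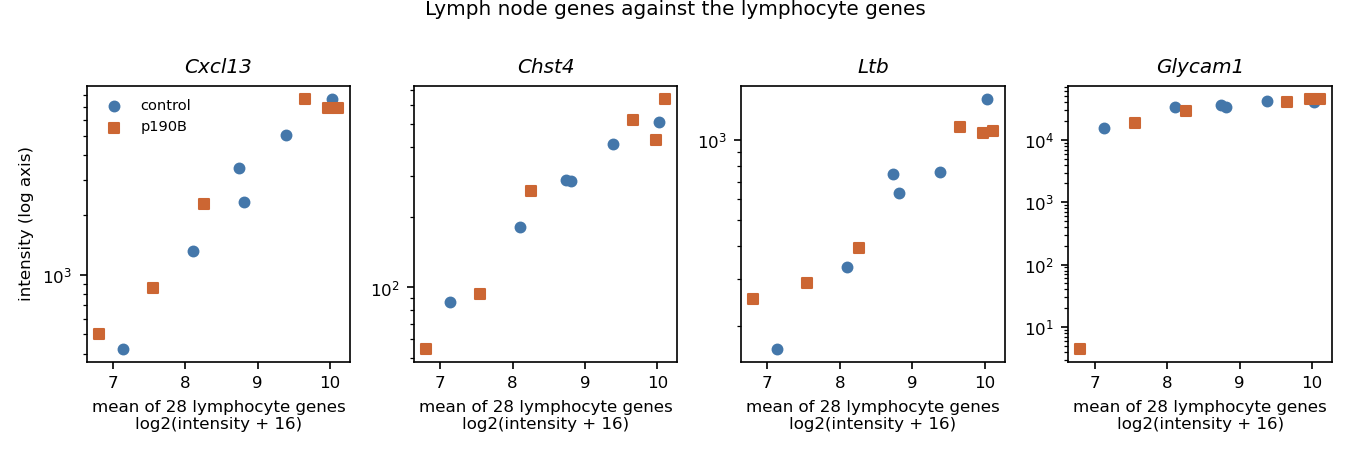
Each panel plots the intensity of 1 gene (log axis) against the mean log2(intensity + 16) of the 28 lymphocyte genes, with 1 point per array and colour for genotype. Cxcl13, Chst4 and Ltb are higher on the arrays with a higher lymphocyte mean, while Glycam1 is at 15429 or more on 11 arrays and at 4.4 on the array with the lowest mean.

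All 10 pan-leukocyte genes correlated above 0.9 with the lymphocyte mean, and markers of other cells followed it less closely. The pan-leukocyte genes averaged 9.67 to 11.87 and correlated with the lymphocyte mean at r = 0.99, with Cd52 from 1087 to 8308 units and Ptprc, the CD45 phosphatase, from 2116 to 10799.5. The 12 macrophage markers spanned 11.77 to 12.48 (r = 0.58), and among them Lyz2 and Tyrobp, which myeloid cells of several kinds carry, had r = 0.94 and 0.93 whereas Cd163, the widest of the list with a range of 2.48, had −0.33. The 12 epithelial markers, which identify the labelled cells, averaged 13.66 to 14.04 with a largest range of 1.08 (r = −0.37). Means of the fibroblast, endothelial and adipocyte markers correlated at −0.06, 0.36 and −0.52. Of the 8 endothelial markers only Lyve1 had a range above 2, at 2.68, with r = 0.65 to the lymphocyte mean. The part of the markers of these lists in the lymphocyte results was not tested.

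Besides the lymphocyte members, 358 probe sets, those of the related lists included, correlated above 0.9 with the lymphocyte mean, as 31 of the 42 lymphocyte probe sets did, together 1.44% of all tested. The closest 12 by rank were 3 probe sets of the T cell receptor alpha segment Trav9d-3 (r = 0.995 to 0.996), Skap1, Icos, Cd52, Gpr18, Glipr1, Ptpn22, Lat, Satb1 and Ptprc (0.989 to 0.993). Trav9d-3 reached 5563 units on its brightest of these probe sets, from a lowest value of 345. Skap1 and Lat encode adaptors of T cell receptor signalling and Ptpn22 a phosphatase that restrains it. Of the 812 probe sets with a range above 2, 242 (29.8%) had such a correlation.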

How the data were processed

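Total RNA of 12 preparations was read on 1-colour Affymetrix arrays. The deposited table holds linear intensities of 45101 probe sets per array, made by the authors with MAS5 per the submitters' processing notes, which name no version. The trimmed mean (2% off each end) came to 1000.0 for every array, so arrays had been scaled to a common target, and array medians ran from 187.6 to 211.5. The number of arrays limits the precision.

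Intensities were used as log2(value + 16), which understates the change of dim genes. The array's own control probe sets were left out, and those with a mean at or above the 40th percentile, about 101.0 units, were kept (27022 of 45037). The test between genotypes was limma's moderated linear model (version 3.58.1, R 4.3.3) with a mean-variance trend, two-sided, adjusted by Benjamini-Hochberg over all tested probe sets at a threshold of 0.05. Only the limma fit was tested on simulated data, with noise drawn independently for each probe set. A gene was read by its brightest tested probe set. Names came from the platform annotation, where 34945 probe sets had 1 symbol, 932 several and 9160 were unnamed here. Correlations are Pearson's r unless given as Spearman's rho. Named in the text were all lymphocyte genes, up to 4 genes of each related list with the widest range, and the 12 probe sets closest to the lymphocyte mean. Genes outside this rule (Madcam1, Tnfrsf11a, Nkx2-3, Cd209a, Zap70, Thy1, Klf2, S1pr1, Prf1, Arhgap5) were added after their values were seen. Members and lists were chosen with earlier results of these data known. Other settings were pseudocounts of 1 and 64, no filter or the 60th percentile, quantile normalization, equal medians, no trend, array weights, replicate block, threshold 0.10, the mean of all probe sets of a gene, leaving out each array, and, added after seeing the data, leaving out p190B replicates 1 and 3.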

Additional observations from a re-analysis of the deposited data

Results flagged for a closer look

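Of 76 groups of 6 arrays examined, 4 held an array far from the others, and chance gives about 1 in 20. Naive minus effector genes was −0.81 on p190B replicate 1 against 0.27 to 0.75 on the other p190B arrays. Jchain minus Cd79b was 0.12 on p190B replicate 3 against 1.18 to 1.64. The log2 value of Glycam1 was 13.91 on control replicate 5 against 15.02 to 15.37 on the other controls, and 4.35 on p190B replicate 1 against 14.19 to 15.49 on the other p190B arrays.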

How the results depend on the processing

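In all 23 other settings 0 lymphocyte probe sets passed between genotypes. The group means over genes moved by less than 1 SD between replicates in every setting tried, but their signs turned: when single arrays were left out, the T and NK difference (main value −0.02, and 0.03 with a pseudocount of 64) ran from −0.33 to 0.38, the B and plasma difference from −0.24 to 0.45 and naive minus effector from −0.37 to 0.07. Without p190B replicates 1 and 3, the p190B arrays lowest in the lymphocyte mean, they were 0.76, 0.84 and 0.13. With the filter at the 60th percentile naive minus effector was −0.50. The median range was 3.08 with a pseudocount of 64, 3.78 with a pseudocount of 1 and 3.29 to 3.56 when 1 array was left out. The correlation of T and NK with B and plasma means was 0.970 to 0.988 when 1 array was left out, the highest without control replicate 2, and 0.962 with the filter at the 60th percentile, which keeps fewer of the genes. Over all tested probe sets the count of 10 calls became 31 with quantile normalization, 24 at a threshold of 0.10, 19 with array weights, 17 with the filter at the 60th percentile, 5 with no filter, 4 with equal medians, 3 without trend, 5 without p190B replicates 1 and 3 and 4 to 9 when 1 array was left out. The cause was not tested. With the replicate block it was 0, and 0 for the lymphocyte probe sets. The numbers pair no samples by design: same-numbered arrays correlated from −0.29 to 0.41, and 1 of 6 correlated best with its own number. With array weights 24 of 28 genes had a positive difference. Dim probe sets, such as those of Cd4, Cr2 and Pax5, limit what can be read on the poorest arrays.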
